A study of Mus musculus with 12 samples.

Results

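The immediate early genes described here are 10 genes listed for being known immediate early genes with short-lived mRNAs, by a rule that uses no measured value: Fos, Fosl1, Jun, Junb, Jund, Egr1, Ier2, Ier3, Ier5 and Atf3. Each was found by matching the gene identifiers of the count table to symbols in the GENCODE mouse annotation, and all 10 were present among 51467 genes. Mouse embryonic stem cells (ESCs) were compared with epiblast-like cells (EpiLCs), an early step away from the naive state. ESCs were kept in Knockout DMEM with 15% fetal bovine serum, LIF and the 2i inhibitors PD0325901, which blocks MEK, and CHIR99021, which blocks GSK3. EpiLCs were made from plated ESCs and were collected about 56 h after the medium with LIF and 2i was taken off. Loss of LIF, loss of each inhibitor and time in culture therefore cannot be told apart in any comparison of the cell types. All cells, ESCs included, received 500 µM 4-thiouridine (4sU), a uridine analogue taken into newly made RNA, for 30 min. The extracted RNA was divided, and one share had its labelled molecules tagged with biotin and pulled out on streptavidin beads (4sU libraries, nascent RNA), while the other was only rid of ribosomal RNA (total libraries). Each cell type had 3 libraries of each kind, 12 in all, with 3097693 to 5385644 counted reads per 4sU library and 9300845 to 21975684 per total library.

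Immediate early genes are transcribed within minutes of a stimulus such as serum or a growth factor, from factors already present in the cell. The ERK branch of MAP kinase signalling, the pathway that MEK feeds, phosphorylates ternary complex factors that sit beside the serum response factor SRF on many of their promoters. Their mRNAs are known for rapid decay, in several cases through AU-rich elements in the 3′ untranslated region (3′ UTR) that recruit deadenylation factors. Fos, Fosl1, Jun, Junb and Jund encode subunits of the dimeric transcription factor AP-1, Atf3 encodes a stress-induced factor that dimerises with Jun proteins, and Egr1 encodes a zinc finger factor. Ier2, Ier3 and Ier5 were named for their rapid induction. Ier3 encodes a small protein tied to cell survival and ERK signalling.

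The transcripts of these genes differed from most in structure, as read from 1 GENCODE M21 transcript per gene. Jun, Junb, Jund, Ier2 and Ier5 had a single exon, so 5 of the 10 genes lacked introns, against 2.79% of 12308 protein-coding genes, whose median was 9 exons. The pentamer ATTTA, the core of AU-rich elements, occurred in the 3′ UTR of 9 of the 10 genes and of 68.4% of protein-coding genes. The longer TATTTAT occurred in 6 of the 10 and in 29.3% of all. Ier3 held 4 copies of TATTTAT in a 3′ UTR of 613 bases, more than 98.7% of genes held. Fos held 2 copies, and Fosl1, Jun, Jund and Atf3 held 1 each. Junb, Egr1 and Ier5 had the pentamer alone, and Ier2 had neither. The windows below are 30 bases of 3′ UTR from the mm10 genome, 5′ to 3′ on the coding strand, with every ATTTA in capitals. They show Fos and Ier3, which carry the most copies of TATTTAT, beside Fosl1 and Jund, which carry 1 copy each and lay far apart in the measurements that follow. Their positions are chr12:85477100-85477129 for Fos, chr17:35822484-35822513 for Ier3, chr19:5455866-5455895 for Fosl1 and chr8:70700358-70700387 for Jund, all on the plus strand.
Fos: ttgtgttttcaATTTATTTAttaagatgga
Ier3: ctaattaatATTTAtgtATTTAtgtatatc
Fosl1: aagggcagctgctATTTAttttcctaaaga
Jund: ccgattccgccctATTTAtgtttctactcg

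In Fos and Ier3 the pentamers overlap or lie 3 bases apart, whereas Fosl1 and Jund show a single pentamer in the whole 3′ UTR. RefSeq promoter windows (build GRCm38.p6, 250 bases before to 50 after the start) were matched for 7 of the 10 genes, leaving out Fosl1, Egr1 and Ier2. No window of the 7 held a CArG box (the SRF site, in 1.63% of 32851 windows), TGAGTCA or TGACTCA (AP-1, 5.2%), TGACGTCA (CRE, 1.79%) or GCGGGGGCG (EGR, 2.91%), searched on both strands. This says only that these letters are not in those windows.

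The labelled cell types carried their markers. All 6 naive markers, such as Zfp42 and Esrrb, were called lower in EpiLC total RNA, with a summed level of 1440 to 1670 CPM (reads per library brought to one common depth, with TMM factors) in ESCs and 36 to 40 CPM in EpiLCs. All 4 formative markers, such as Fgf5 and Otx2, were called higher. Of these markers, Prdm14 and Nr0b1 passed the filter of 3 CPM in 3 libraries only through ESC libraries. Fgf5 passed only through EpiLC libraries, so these genes had to differ. Of 10 fibroblast markers, 4 passed the expression filter and Fap had no read in any library. In total RNA 2 of the 4 were called higher in EpiLCs: Dcn had 0 CPM in every ESC total library and 4.49 to 5.33 CPM in EpiLC total libraries, and Col1a2 had 0.101 to 0.198 and 3.7 to 5.05 CPM. Pdgfrb was called lower, from 7.03 to 11.3 CPM to 1.7 to 2.48 CPM. Dcn and Col1a2 passed the filter only through EpiLC total libraries, and Pdgfrb only through ESC libraries. The filter thus favoured these calls, which are a description only. The summed level of the list was 11.4 to 15.7 CPM in ESC total libraries and 16.7 to 21.8 CPM in EpiLC total libraries, but 7.91 to 10.1 and 6.56 to 7.67 CPM in the 4sU libraries. In 4sU RNA too, Dcn and Col1a2 were called higher in EpiLCs and Pdgfrb lower. The part of these markers in the results was not tested. The 6 primitive endoderm markers summed to 5.01 to 17.1 CPM over all libraries.

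The ESC libraries numbered 3 stood apart from ESC replicates 1 and 2. Of the immediate early genes, Egr1, Atf3, Fos, Jund and Junb lay furthest there from the other ESC replicates in 4sU RNA. The 10 genes as a whole did not move one way: 4 of the 10 were below the other replicates in 4sU and 6 in total RNA, with medians of 0.07 and -0.30 log2 units. Over all genes these departures centred near 0. In ESCs, 52.2% of genes lay below Ier2 (0.008) in 4sU and 54.8% below Jun (0.04) in total RNA. In EpiLCs, 54.3% lay below Ier3 (0.016) in 4sU and 49.7% below Ier2 (0.005) in total RNA. Egr1 was 25-fold lower in the third ESC 4sU library than the mean of the other 2 (on the log2 scale of CPM + 0.5), ranking 1 from the lowest of 14731 genes. In the third ESC total library it was 6.35-fold lower and ranked 3. Fos was 2.16-fold lower there in 4sU and 1.98-fold lower in total RNA. Atf3 went the other way, 1.88 log2 units above the other ESC 4sU libraries and 1.18 above the other ESC total libraries, and Jund lay 0.97 above them in 4sU. Junb stood at -0.82 log2 units against the other ESC replicates in 4sU and -0.49 in total RNA. ERK signalling induces the 10 genes listed as ERK feedback genes, most of which encode phosphatases or inhibitors. Of these 10, 9 were below the other ESC replicates in each assay, with medians of -0.61 in 4sU and -0.39 in total RNA. Spry4 was 5.56-fold and 4.36-fold lower, and Dusp6 was 2.75-fold and 2.67-fold lower. In the third EpiLC libraries 2 of the 10 ERK feedback genes were below the other EpiLC replicates in each assay. Of the 10 immediate early genes, 9 were below them in 4sU and 6 in total RNA, with small medians of -0.11 and -0.07 log2 units. The one furthest from them was Fos in total RNA, at -0.58 log2 units. What set ESC replicate 3 apart was not tested. Values without both of its libraries are given beside the genes it moves and beside the list counts.

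**Figure D1:**
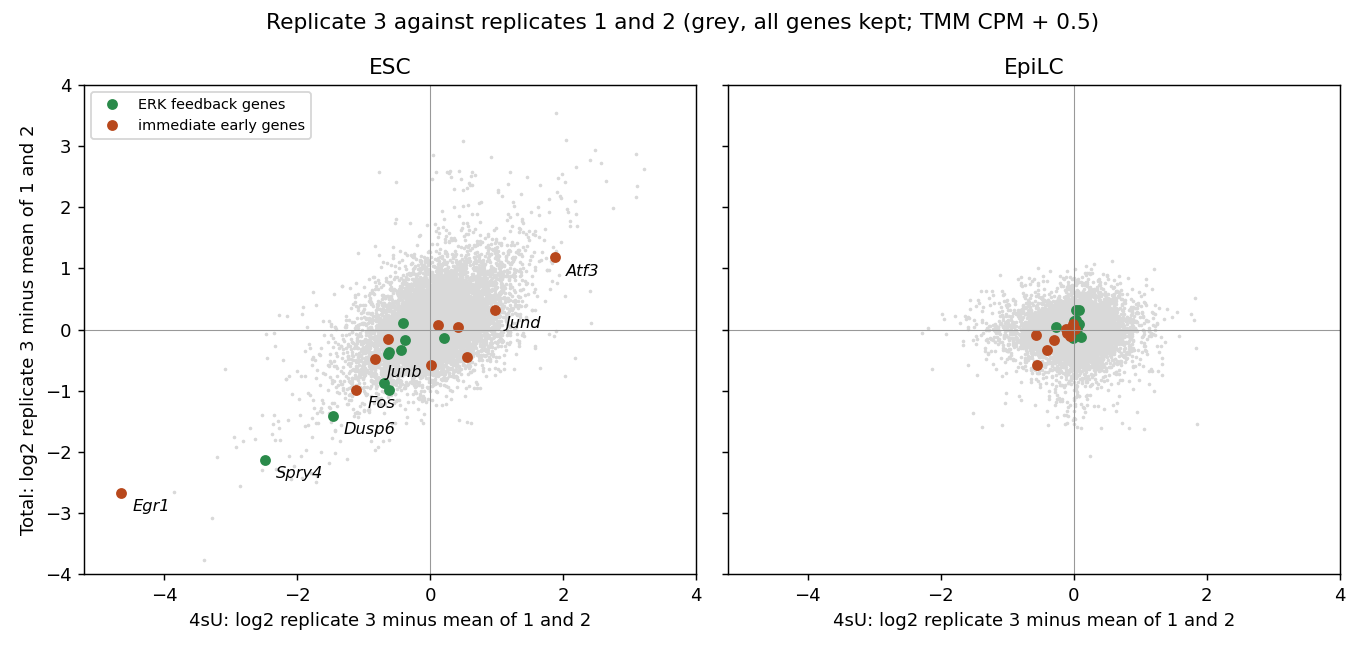
Departure of replicate 3 from the mean of replicates 1 and 2, as log2 of TMM CPM + 0.5, in 4sU libraries (x axis) and total libraries (y axis), for ESCs (left) and EpiLCs (right). Grey points are the 14731 genes kept, green points the 10 ERK feedback genes and orange points the 10 immediate early genes. Egr1 lies at -4.64 and -2.67 in ESCs, at the edge of all genes, and near -0.40 and -0.33 in EpiLCs.

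Levels were compared between genes as RPKM, the TMM-scaled CPM divided by the exon length in kilobases. In nascent RNA of ESCs, Ier2 led at 393 ± 32.6 RPKM (SD, n = 3), with no library overlapping the next gene. Egr1, Jund, Fos, Junb, Atf3 and Jun followed at means of 95.6 to 22.1 RPKM, and each overlapped its neighbour in this order. Ier3 at 13.6 ± 3.33, Ier5 at 5.89 ± 0.44 and Fosl1 at 0.34 ± 0.25 RPKM each stood clear of the gene above. In nascent RNA of EpiLCs, Ier2 (342 ± 38) and Egr1 (303 ± 94.3) overlapped at the top, followed by overlapping Jund, Junb and Jun at 100.1 to 83.0 RPKM.

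The order in total RNA was different. Jund was the highest in EpiLCs at 114 ± 6.88 RPKM, clear of Ier2 at 77.4 ± 6.45. In ESCs the same 2 genes led and overlapped, Ier2 at 84.1 ± 18.1 and Jund at 69.9 ± 9.72. Egr1, second in both nascent lists, came ninth in ESC total RNA at 1.52 ± 1.16 RPKM and sixth in EpiLC total RNA at 7.45 ± 2.39. Fosl1 was the lowest in every group and reached 0.439 ± 0.026 RPKM in EpiLC total RNA. As these are bulk samples, fewer cells expressing a gene and less RNA per cell cannot be told apart.

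**Figure D2:**
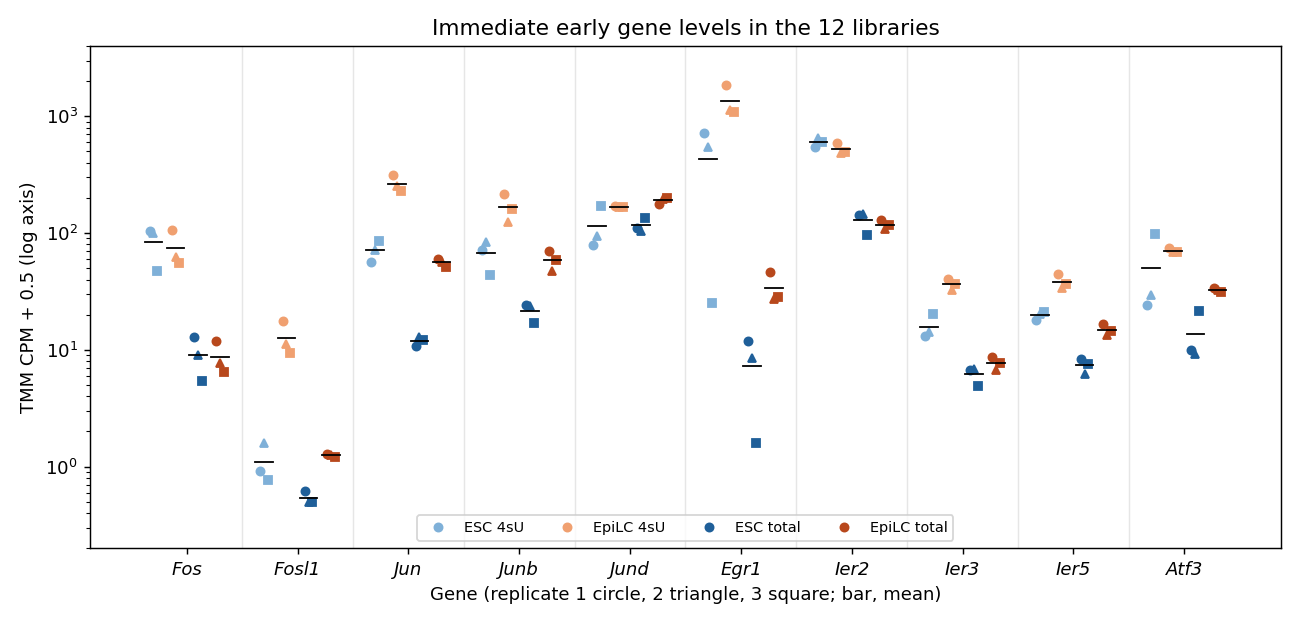
Level of each immediate early gene in the 12 libraries, as TMM CPM + 0.5 on a log axis (CPM is not divided by length, so heights are compared within a gene). Light colours are 4sU libraries and dark colours total libraries, blue for ESCs and orange for EpiLCs, with replicates 1, 2 and 3 as circle, triangle and square and the mean as a bar. For 9 genes every dark point lies below the light points of the same cell type, and Jund is the exception.

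The first comparison asked how the level of each mRNA in total RNA related to its level in nascent RNA within a cell type. The log2 of total over 4sU is a relative mRNA stability: scaling fits each library to its own make-up, so the ratio has meaning only beside those of other genes. A gene was called where its Benjamini-Hochberg adjusted p over all genes was under 0.05 and its absolute log2 change over 1, in a limma-voom fit to the 12 libraries. All 10 genes passed the filter of 3 CPM in 3 libraries, but Fosl1 passed only through the EpiLC 4sU libraries, where it was high, so it had to differ and is left out of the counts and medians that follow. Of the other 9 genes, 8 were called higher in 4sU RNA in ESCs, against 26.8% of all genes tested, and none was called higher in total RNA (23.7% of all genes). In EpiLCs, 8 of the 9 were called higher in 4sU (23.3% of all genes) and none higher in total RNA (24.2%), and Jund was the exception in both. Their median log2 total over 4sU was -1.77 in ESCs and -2.14 in EpiLCs, where all genes had medians of 0.03 and 0.15. The lower quartile of all genes was -1.15 in ESCs and -0.93 in EpiLCs, and 8 of the 9 lay below it in each cell type. Without both ESC replicate 3 libraries 8 of the 9 were again called higher in 4sU in each cell type (4037 and 3463 of all 14731 genes). Then 7 lay below the lower quartile of all genes in ESCs and 8 in EpiLCs. By edgeR and DESeq2 the counts were again 8 and 0 in each cell type, and none of the 9 was higher in total RNA at an unadjusted p under 0.05 in limma-voom.

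Egr1 was the extreme. It had 3493, 3022 and 90 reads in the ESC 4sU libraries against 194, 160 and 11 in the much deeper ESC total libraries. In EpiLCs it had 7794, 5308 and 3679 reads in 4sU against 408, 281 and 277 in total RNA. Every total library was below every 4sU library of its cell type in scaled level. Fitted log2 total over 4sU was -5.27 ± 1.39 (SE) in ESCs (limma-voom, adjusted p = 0.00292) and -5.36 ± 0.92 in EpiLCs (limma-voom, adjusted p = 8.88e-05), with 0.373% and 0.0679% of all genes lower. Without both ESC replicate 3 libraries the ESC value was -6.04 ± 0.31 (limma-voom, adjusted p = 1.15e-12).

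Fos, the founding AP-1 subunit, had scaled nascent levels of 104, 99.8 and 46.9 CPM in ESCs and 105, 62.0 and 55.2 CPM in EpiLCs. Its levels in total RNA were 12.4, 8.45 and 4.94 CPM in ESCs and 11.3, 7.24 and 5.90 CPM in EpiLCs. The assays did not overlap, and libraries of the same number gave nearly equal ratios. The log2 ratio was -3.01, -3.49 and -3.12 in ESC replicates 1, 2 and 3 and -3.16, -3.01 and -3.12 in EpiLC replicates. The fit gave -3.24 ± 0.36 and -3.20 ± 0.42 (limma-voom, adjusted p = 9.64e-07 and 6.57e-06).

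Jun came next among the abundant genes, at -2.59 ± 0.17 in ESCs and -2.24 ± 0.13 in EpiLCs on the log2 scale. Ier2, which has no ATTTA in its 3′ UTR, lay at -2.23 ± 0.13 and -2.14 ± 0.14. Junb, Ier5 and Atf3 lay between -1.77 and -1.14 over both cell types. Ier3 lay at -1.35 ± 0.20 in ESCs and lower, at -2.34 ± 0.18, in EpiLCs, a difference taken up with the stability changes. Fosl1 was fitted at -3.92 ± 0.42 in EpiLCs, from 152 nascent and 22 total reads over 3 libraries each. In ESCs it rested on 9 nascent and 2 total reads, for a ratio of total over 4sU of 0.0568 (exact 95% interval 0.00597 to 0.274, counting error only), so its fitted value there is no measure of size.

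Jund stood outside this pattern. Its total levels of 111, 104 and 135 CPM in ESCs overlapped its nascent levels of 79.1, 93.2 and 169 CPM. In EpiLCs total levels of 177, 196 and 198 CPM lay slightly above nascent levels of 168, 167 and 166 CPM. Fitted log2 total over 4sU was 0.12 ± 0.19 in ESCs and 0.19 ± 0.18 in EpiLCs (limma-voom, adjusted p = 0.552 and 0.365), close to the medians of all genes. Without both ESC replicate 3 libraries it was 0.32 ± 0.09 and 0.19 ± 0.07 (limma-voom, adjusted p = 0.00235 and 0.0145), past the p threshold but under the fold threshold in both. Its sign in both cell types turned negative, at -0.05 and -0.04, with TMM scaling within each assay. Jund has the same single exon and 1 copy of TATTTAT as Jun, and its transcript is 67.2% GC, above 99.8% of genes. Label enters at uridines, and thymidine made up 16.97% of the Jund transcript, 17.3% of Junb and 24.3% of Fos, with a median of 24.2% over genes. The part of base composition in these ratios was not tested.

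**Figure D3:**
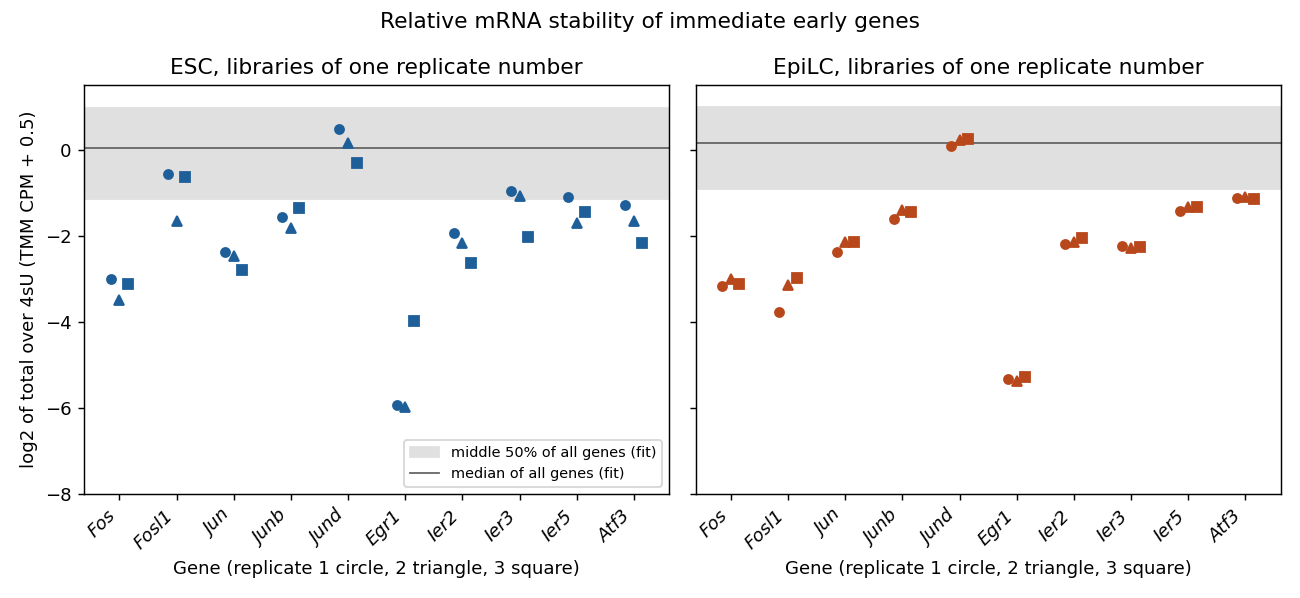
Log2 of total over 4sU (TMM CPM + 0.5) for each immediate early gene, from libraries of one replicate number, in ESCs (left) and EpiLCs (right). The grey band spans the quartiles of all genes in the fit and the line their median, 0.03 in ESCs and 0.15 in EpiLCs. Egr1 is the lowest point in each panel, Jund lies near the median, and Fosl1 in ESCs is drawn towards 0 by the added 0.5 CPM.

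The second comparison asked which immediate early mRNAs changed from ESCs to EpiLCs, and whether nascent RNA changed with them. Among the 9 genes other than Fosl1, 4 were called higher in EpiLC total RNA (Jun, Junb, Ier5 and Atf3), against 16.3% of all genes, and none lower (11.2% of all genes). In nascent RNA, 4 of the 9 were called higher (Jun, Junb, Egr1 and Ier3), against 11.9% of all genes, and none lower (13.5%). By edgeR the counts were 5 and 3, and by DESeq2 5 and 4. Without both ESC replicate 3 libraries they were 5 and 5 in limma-voom, where 2591 and 1818 of all 14731 genes were called higher. With all 12 libraries none of the 9 was lower at an unadjusted p under 0.05 in limma-voom, or called lower by edgeR or DESeq2, in either assay. Without both ESC replicate 3 libraries, Ier2 in both assays and Fos in nascent RNA were lower past the adjusted p threshold, but under the fold threshold. The values are given below for each of these genes. The median log2 change of the 9 was 1.07 in total and 0.96 in nascent RNA, where all genes had medians of 0.02 and -0.09. The study calls its replicates biological, and the labels do not say whether they were separate cultures. The p-values measure the spread between these libraries.

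The Fos family split. Fos (ENSMUSG00000021250.13, chr12:85473890-85477273 in mm10, plus strand) did not pass in either assay, at -0.14 ± 0.46 log2 in total RNA and -0.17 ± 0.30 in nascent RNA (limma-voom, adjusted p = 0.807 and 0.662), and its ESC and EpiLC libraries overlapped in both. Without ESC replicate 3 its nascent change was -0.50 ± 0.18 (limma-voom, adjusted p = 0.0229), short of the fold threshold. Fosl1 (ENSMUSG00000024912.5, chr19:5447703-5455945, plus strand), which encodes the AP-1 subunit Fra-1, had 2, 6 and 1 reads in ESC 4sU libraries and 72, 50 and 30 in EpiLC 4sU libraries. In total RNA it had 2, 0 and 0 reads in ESCs and 7, 8 and 7 in EpiLCs. The libraries of the cell types did not overlap in either assay. Pooled over libraries, the EpiLC level was 19.7 times the ESC level in nascent RNA (exact 95% interval 10.1 to 44.0) and 18.7 times in total RNA (4.6 to 164), counting error only. Since Fosl1 entered the fit through its EpiLC 4sU level, these values are a description and no test is given.

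Of the Jun genes, Jun and Junb rose and Jund stayed under the fold threshold. Jun (ENSMUSG00000052684.4, chr4:95049034-95052222, minus strand) rose from 10.3, 12.5 and 11.7 CPM in ESC total libraries to 59.3, 56.4 and 51.2 CPM in EpiLC total libraries. Its nascent levels rose from 56.1, 70.9 and 84.5 CPM to 313, 253 and 228 CPM. Every EpiLC library was above every ESC library of its assay, and both changes had the smallest adjusted p of the 10 genes. The log2 change was 2.27 ± 0.16 in total RNA and 1.93 ± 0.14 in nascent RNA (limma-voom, adjusted p = 2e-08 and 8.51e-08).

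Junb (ENSMUSG00000052837.6, chr8:84976910-84978718, minus strand) rose from 23.8, 23.1 and 16.6 CPM to 69.5, 47.1 and 58.1 CPM in total RNA, and from 71.7, 83.6 and 43.6 CPM to 214, 124 and 159 CPM in nascent RNA. Again no library overlapped. The log2 changes were 1.42 ± 0.24 and 1.30 ± 0.24 (limma-voom, adjusted p = 9.94e-05 and 0.000352). Without ESC replicate 3 they were 1.285 ± 0.175 and 1.052 ± 0.175 (limma-voom, adjusted p = 2.05e-06 and 4.23e-05), the nascent change just over the fold threshold. Jund (ENSMUSG00000071076.6, chr8:70698949-70700616, plus strand), often the most constant member of the family, changed by 0.72 ± 0.17 in total RNA and 0.66 ± 0.20 in nascent RNA (limma-voom, adjusted p = 0.00205 and 0.0111), under the fold threshold in both. In nascent RNA the third ESC library reached 169 CPM, as high as all 3 EpiLC libraries, and without ESC replicate 3 the nascent change of Jund was 0.96 ± 0.09.

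Atf3 (ENSMUSG00000026628.13, chr1:191170296-191218039, minus strand) had 9.44, 8.70 and 21.2 CPM in ESC total libraries and 33.6, 31.9 and 30.6 CPM in EpiLC total libraries. Its nascent levels were 23.6, 28.8 and 97.6 CPM in ESCs and 74.1, 68.6 and 68.3 CPM in EpiLCs. The total libraries did not overlap, but the third ESC 4sU library exceeded every EpiLC 4sU library. The log2 change was 1.52 ± 0.36 in total RNA (limma-voom, adjusted p = 0.0021) and 0.89 ± 0.37 in nascent RNA (limma-voom, adjusted p = 0.0546). Without ESC replicate 3 the changes were 1.82 ± 0.11 and 1.42 ± 0.12 (limma-voom, adjusted p = 1.42e-11 and 4.48e-09), so that the nascent call was made there.

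Egr1 (ENSMUSG00000038418.7) was higher in every EpiLC library than in any ESC library of its assay. Nascent levels were 718, 543 and 24.5 CPM in ESCs and 1846, 1131 and 1097 CPM in EpiLCs. Total levels were 11.3, 8.09 and 1.09 CPM in ESCs and 45.8, 26.8 and 27.7 CPM in EpiLCs. The log2 change was 2.56 ± 0.82 in nascent RNA (limma-voom, adjusted p = 0.017) and 2.47 ± 1.45 in total RNA, which did not pass (limma-voom, adjusted p = 0.151). Without ESC replicate 3 both passed, at 1.08 ± 0.17 and 1.75 ± 0.34 (limma-voom, adjusted p = 2.47e-05 and 0.000122), with the nascent change far smaller. Other tests divided the calls differently: edgeR's quasi-likelihood test gave adjusted p = 0.0563 for nascent and 0.0327 for total RNA, and DESeq2 gave 0.141 and 0.0436.

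The Ier genes each behaved differently. Ier2 (ENSMUSG00000053560.4, chr8:84661331-84662852, minus strand) did not pass in either assay (-0.11 ± 0.14 in total and -0.20 ± 0.13 in nascent RNA, limma-voom, adjusted p = 0.499 and 0.217). Without ESC replicate 3 its total change was -0.29 ± 0.09 and its nascent change -0.20 ± 0.08 (limma-voom, adjusted p = 0.00585 and 0.043). Both were past the p threshold but far under the fold threshold. Ier5 (ENSMUSG00000056708.5, chr1:155096361-155099636, minus strand) had 7.92, 5.67 and 7.11 CPM in ESC total libraries and 16.3, 12.9 and 13.9 CPM in EpiLC total libraries, with no overlap. It rose by 1.07 ± 0.16 log2 units in total RNA (limma-voom, adjusted p = 4.17e-05) and stood at 0.96 ± 0.17 in nascent RNA (limma-voom, adjusted p = 0.000234), just under the fold threshold. Its total call was lost, at 0.90 and 0.98, when the second ESC total library or the first EpiLC total library was left out.

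Ier3 (ENSMUSG00000003541.6, chr17:35821684-35822923, plus strand) was the gene whose nascent and total changes parted. Its nascent levels were 12.5, 13.9 and 19.6 CPM in ESCs and 40.3, 32.2 and 36.4 CPM in EpiLCs, without overlap. Its total levels were 6.17, 6.32 and 4.45 CPM in ESCs and 8.19, 6.19 and 7.19 CPM in EpiLCs, and these overlapped. Nascent Ier3 rose by 1.29 ± 0.18 log2 units (limma-voom, adjusted p = 3.64e-05), whereas the total change was 0.30 ± 0.20 (limma-voom, adjusted p = 0.194).

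**Figure D4:**
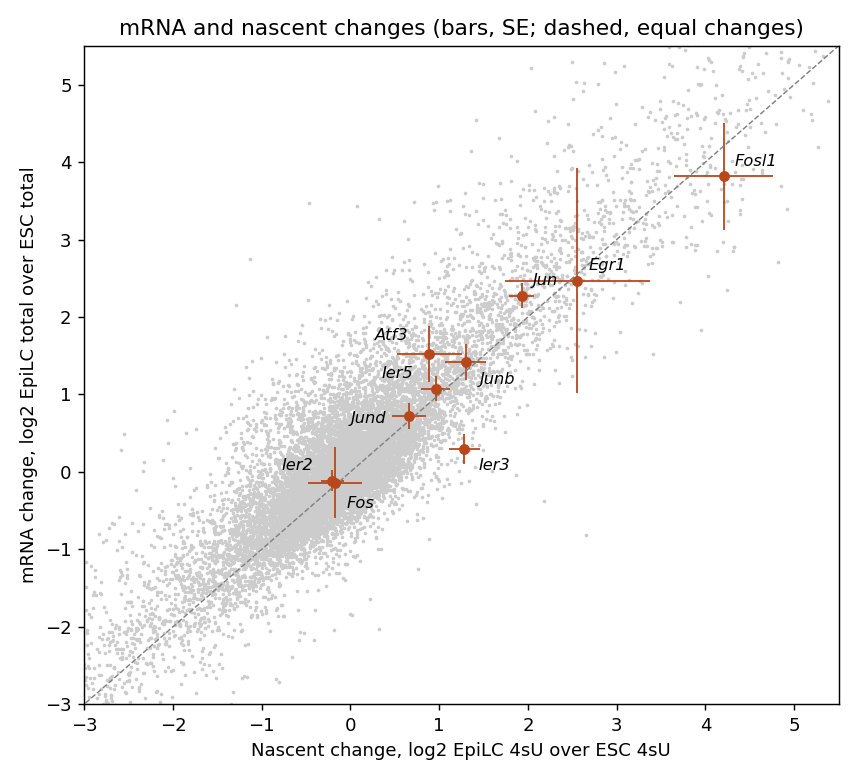
Change from ESCs to EpiLCs in nascent RNA (x axis) and total RNA (y axis), as log2 fold change from the limma-voom fit, with SE bars for the 10 immediate early genes (orange) and all genes kept in grey. The dashed line marks equal changes. Most of the 10 lie along it, Ier3 lies below it at 1.29 and 0.30, and Egr1 has the widest bars, 0.82 and 1.45.

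The stability change was the total change minus the nascent change, tested as the interaction of cell type and assay. Of the 9 genes other than Fosl1 none was called, in a contrast that called 1.54% of all genes (1.24% higher and 0.305% lower in EpiLCs). At an unadjusted p under 0.05 limma-voom, edgeR and DESeq2 each found 1 of the 9, Ier3. The share of all genes at an unadjusted p under 0.05 is not given, here or for the lists below. At an adjusted p under 0.05 alone, 678 of all 14731 genes passed in limma-voom. At the thresholds for a call edgeR called 0 of the 9 and DESeq2 called 1. The median stability change of the 9 was 0.09, beside 0.11 over all genes. Ier3 had a stability change of -0.99 ± 0.27 (limma-voom, adjusted p = 0.0494), just short of the fold threshold, with 1.62% of all genes lower. Its log2 total over 4sU by replicate was -0.97, -1.07 and -2.02 in ESCs and -2.23, -2.29 and -2.26 in EpiLCs. The EpiLC ratios were all lower than the ESC ratios, and the third ESC ratio came close to them. Without both ESC replicate 3 libraries the change was -1.25 ± 0.22 and was called (limma-voom, adjusted p = 0.000782). DESeq2 gave -1.02 ± 0.30 (adjusted p = 0.0142) and edgeR -0.94 (adjusted p = 0.0621). In those ESC and EpiLC libraries Ier3 had 45 to 125 total reads and 61 to 170 nascent reads each.

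None of the other genes passed, and for several the error was wide. Jun stood at 0.34 ± 0.21, Atf3 at 0.63 ± 0.52 and Egr1 at -0.09 ± 1.66 (limma-voom, adjusted p = 0.37, 0.507 and 0.984). For Egr1 the interval is too wide to speak of no change: without ESC replicate 3 the value was 0.67 ± 0.38 (limma-voom, adjusted p = 0.228). Fosl1, with 2 total reads in ESCs, stood at -0.39 ± 0.89, and Fos, Junb, Jund, Ier2 and Ier5 lay between 0.03 and 0.12.

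A wider list of 28 other immediate early genes, of which 27 passed the filter, was described in the same way. In total over 4sU, 25 of the 27 were called higher in 4sU in ESCs and 25 in EpiLCs (26.8% and 23.3% of all genes), with medians of -2.16 and -2.21. In total RNA 12 were called higher and 2 lower in EpiLCs (16.3% and 11.2% of all genes), and in nascent RNA 15 higher and 1 lower (11.9% and 13.5% of all genes). Without both ESC replicate 3 libraries these counts were 14 and 2 in each assay. For this and the lists below, that fit called 2591 of all 14731 genes higher and 1666 lower in total RNA. In nascent RNA it called 1818 higher and 2003 lower. None of the 27 was called for stability by limma-voom, edgeR or DESeq2, with 6 at an unadjusted p under 0.05 in limma-voom (1 higher and 5 lower). Fosl2, encoding the AP-1 subunit Fra-2, rose by 4.67 ± 0.40 log2 units in total RNA and 4.45 ± 0.34 in nascent RNA. Myc, encoding a growth-promoting transcription factor, rose by 3.33 ± 0.35 and 3.33 ± 0.22. Without ESC replicate 3, which was low for it in both assays, its changes were 3.07 ± 0.23 and 3.04 ± 0.14. Sik1, encoding a salt-inducible kinase, fell by 1.64 ± 0.09 in total and 1.36 ± 0.10 in nascent RNA, and Klf10, a zinc finger factor induced by TGF-beta, fell by 1.13 ± 0.18 in total RNA.

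Among dimer partners of AP-1, 8 of 12 genes passed the filter, of which 2 were called higher and 1 lower in total RNA, where 16.3% and 11.2% of all genes were. Their median log2 total over 4sU was -1.25 in ESCs and -1.03 in EpiLCs, with 5 and 4 called higher in 4sU (26.8% and 23.3% of all genes). Mafk, encoding a small Maf factor, rose by 1.20 ± 0.16 log2 units, and Jdp2, a repressor that pairs with Jun, fell by 1.39 ± 0.16. None of the 8 was called for stability by limma-voom, edgeR or DESeq2, with 2 at an unadjusted p under 0.05 in limma-voom. Without both ESC replicate 3 libraries 1 of the 8 was called for stability, higher in EpiLCs (785 of all 14731 genes were called). The calls in total RNA were then again 2 and 1. In nascent RNA 2 were called higher and 1 lower (11.9% and 13.5% of all genes), and 2 and 2 without those libraries. Of the 6 genes for SRF, its ternary complex factors and its actin-regulated coactivators, 2 were called higher and 1 lower in total RNA (16.3% and 11.2% of all genes). Their median log2 total over 4sU was -1.25 in ESCs and -0.53 in EpiLCs, with 4 and 3 called higher in 4sU (26.8% and 23.3% of all genes). Srf rose by 1.24 ± 0.11 in total RNA, while its nascent change was -0.12 ± 0.12. Its stability change of 1.36 ± 0.17 was called (limma-voom, adjusted p = 0.00127), the only call for stability among these 6. Without both ESC replicate 3 libraries the counts of these 6 genes in total RNA and for stability were the same. The coactivator gene Mrtfb rose by 1.24 ± 0.13 in total RNA, and the ternary complex factor Elk3 fell by 1.68 ± 0.29.

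Of 14 MAP kinase pathway genes, including Map2k1, which encodes MEK1, none was called in total RNA by limma-voom, edgeR or DESeq2. In nascent RNA 1 was called higher by limma-voom (11.9% of all genes). Without both ESC replicate 3 libraries these genes had 0 calls in total RNA and 2 in nascent RNA, both higher. At an adjusted p under 0.05 alone, 4627 of all 14731 genes were higher and 4729 lower in total RNA, so a split both ways is not particular to this list. The changes of the 14 were small and went both ways, with 6 higher and 5 lower in total RNA at an unadjusted p under 0.05. Their median log2 total over 4sU was 0.92 in ESCs and 0.97 in EpiLCs, opposite in sign to the medians of the immediate early genes and of the other 3 pathway lists. In each cell type 6 of the 14 were called higher in total RNA, against 23.7% of all genes in ESCs and 24.2% in EpiLCs. Of the 10 ERK feedback genes, 4 were called higher in total RNA and 3 in nascent RNA, and none lower by limma-voom, edgeR or DESeq2 (1 and 0 lower at an unadjusted p under 0.05 in limma-voom). Over all genes 16.3% and 11.9% were called higher. Without both ESC replicate 3 libraries the counts were 3 and 2. Their median log2 total over 4sU was -2.11 in ESCs and -1.94 in EpiLCs, with 6 of the 10 called higher in 4sU in each (26.8% and 23.3% of all genes). Dusp6, encoding an ERK phosphatase, rose by 3.79 ± 0.34 and 3.45 ± 0.31, and Dusp4 rose by 1.75 ± 0.11 and 1.53 ± 0.14. Without ESC replicate 3 the changes were 3.42 ± 0.13 and 3.01 ± 0.12 for Dusp6 and 1.71 ± 0.10 and 1.43 ± 0.14 for Dusp4.

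For each gene, the non-member with the most similar profile was taken as the one with the smallest root mean square difference in centred log2 CPM over the 12 libraries, among 10179 genes averaging 10 CPM or more. The nearest were Ptger4 for Jun (0.23), Csrnp1 for Junb (0.25), Midn for Ier3 (0.16), Amotl2 for Ier5 (0.16), Dhps for Jund (0.16), Tmem251 for Ier2 (0.11), Syde1 for Atf3 (0.33) and Mir291b for Fos (0.30). For Fosl1 it was Klf6, at 0.59. Egr1 had no close match: its nearest gene, Egr2, was 1.31 log2 units away, and Egr2 too was low in ESC replicate 3, by 4.21-fold in 4sU and 2.09-fold in total RNA.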

How the data were processed

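The authors trimmed adapters (cutadapt 1.14), aligned single-end reads to mm10 with STAR 2.5.3a, kept uniquely placed reads, and deposited raw strand-specific exon counts per GENCODE M14 gene (featureCounts 1.5.3, ribosomal RNA genes removed). The table held 51559 entries, of which 92 were spike-ins with 0 reads, so there was no absolute scale. Unique alignment can lower counts of genes with near-identical copies. For symbols, transcripts and gene types GENCODE M21 was used, where 51274 gene IDs were found. A gene needed 3 CPM or more in 3 or more libraries (14731 genes did). The filter and a limma linear model of cell type and assay with their interaction follow the study's methods, while voom weights and TMM scaling were chosen here. The model gave the 12 libraries 1 mean for each combination of cell type and assay (R 4.3.3, limma 3.58.1, TMM from edgeR 4.0.16), with Benjamini-Hochberg adjustment over all genes kept. The fit was tested on simulated data. CPM and RPKM were computed from the counts with TMM factors and, for RPKM, the exon length in the deposited table. Ratios per library used CPM + 0.5. Pooled ratios of Fosl1 used library totals and exact conditional intervals. Reads carried no molecular identifiers, so intervals cover counting error only, and the 4sU libraries, with fewer reads, limit precision. Replicates of a group differed by more than sampling noise (chi-square per degree of freedom 1.41 to 29.7), so none was merged.

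The 10 genes and the other lists were chosen with earlier results of these data known. All 10 are named throughout. From the other lists, up to 2 highest and 2 lowest called changes in total RNA without overlap between cell types are named, except 1 gene that is not reported here, and genes shown for the departure of ESC replicate 3, for the marker check or as examples of a list were chosen after their values were seen. Counts without Fosl1 were added after its values were seen. Alternatives were other scalings and filters, DESeq2 1.42.0, the quasi-likelihood test of edgeR, library weights, no fold threshold, replicate blocks and left-out libraries. Figures were drawn with matplotlib.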

Additional observations from a re-analysis of the deposited data

How the results depend on the processing

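Counts and medians here are over all 10 genes, Fosl1 included, which had to differ by the filter. The calls of 9 genes higher in 4sU in each cell type held under every scaling, filter, test, weight, block and left-out library tried. Calls in total RNA numbered 5 or 6 and in nascent RNA 4 to 7 over alternatives other than single libraries left out, and 4 to 6 in both when 1 library was left out. The 0 calls for stability became 1, Ier3, lower in EpiLCs, under median-of-ratios scaling, TMM within each assay, DESeq2, sample quality weights, the adjusted p alone and without both ESC replicate 3 libraries, and ranged from 0 to 1 with single libraries left out. The cause was not tested. Median log2 total over 4sU of the 10 genes in EpiLCs moved to -2.35 (median-of-ratios), -2.36 (library totals), -2.42 (TMM within each assay), -2.35 (DESeq2), -2.08 (no filter) and -2.07 (filter at 1 CPM), and ranged from -2.25 to -2.08 with single libraries left out. In ESCs that range was -2.21 to -2.001. All genes shifted as well: their median in EpiLCs was 0.15 with TMM, -0.08 with TMM within each assay and -0.02 with library totals. With no filter it was -0.64 in EpiLCs and -0.81 in ESCs. The number of all genes called for stability, 227, ran from 179 (no filter) to 846 (sample quality weights), with 785 without both ESC replicate 3 libraries and 97 to 662 with single libraries left out.

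Changes of direction were all in values not called. The stability change of Fos became -0.051 (median-of-ratios), -0.022 (TMM within each assay), -0.046 (no filter) and -0.020 (quality weights). That of Jund became -0.023 (median-of-ratios), -0.030 (no filter) and -0.13 (without both ESC replicate 3 libraries). That of Ier2 became -0.037 (no filter), -0.0086 (DESeq2), -0.031 (quality weights) and -0.092 (without both ESC replicate 3 libraries). That of Egr1 became 0.53 (edgeR and DESeq2) and 0.67 (without both ESC replicate 3 libraries). Log2 total over 4sU of Jund became -0.11 (library totals), -0.049 (TMM within each assay) and -0.028 (DESeq2) in ESCs and -0.044 (TMM within each assay) in EpiLCs. With single libraries left out, stability changes ranged from -0.21 to 0.36 for Fos, -0.97 to 0.29 for Fosl1, -0.077 to 0.36 for Junb, -0.23 to 0.28 for Jund, -0.87 to 1.37 for Egr1, -0.089 to 0.19 for Ier2 and -0.059 to 0.24 for Ier5. The total change of Fos also changed sign (-0.38 to 0.16), as did its nascent change (-0.50 to 0.0051) and the ESC ratio of Jund (-0.091 to 0.42). The nascent call of Egr1 was lost in 1 of 12 such fits (adjusted p up to 0.0617, limma-voom).

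The labels do not say that a number marks one RNA extract. Deviations of same-numbered 4sU and total libraries correlated at 0.232 to 0.484 in ESCs but at 0.0241 to 0.102 in EpiLCs, and same-numbered ESC and EpiLC libraries at -0.156 to -0.0005. With the number as a replicate block, 6 genes were called in total RNA (Egr1 added, 2.24 ± 0.79, limma-voom adjusted p = 0.0229), 5 in nascent RNA and 0 for stability. With a block per cell type and number, 0 were called for stability, since 3 genes passed the adjusted p but not the fold threshold: Egr1 at 0.61 ± 0.16 (limma-voom adjusted p = 0.0301), Atf3 at 0.69 ± 0.18 (0.031) and Ier3 at -0.98 ± 0.25 (0.0282).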
